A study of Mus musculus with 36 samples.

Results

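The 10 genes described here carry the Wnt signal inside the cell or respond to it. They were chosen by name from the 55487 genes of the count table: Dvl1, Dvl2, Dvl3, Csnk1e, Axin1, Nkd1, Axin2, Lef1, Ctnnb1 and Apc. All 10 passed the filter on low counts in every fit, with between 469 read pairs (Lef1) and 199141 read pairs (Ctnnb1) in a library. The list was drawn up with earlier results of these data in view, and which values guided it is not recorded. The levels and fold changes below are therefore a description, the share of the genes that passed a threshold is not independent support for any pattern, and every adjusted p is taken over all genes tested rather than over the 10.

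The RNA came from cortices of female E14.5 mouse embryos and was sequenced before and after a sucrose gradient that parts RNAs by the ribosomes they carry. Input is the cleared lysate, the monosome fraction holds RNA sedimenting with a single ribosome, and the polysome fraction holds RNA sedimenting with several. Each of 12 pools held the cortices of 2 embryos of like genotype and gave 1 library of each fraction, so that the 36 libraries form 12 groups of 3. In the LoF cross, conditional heterozygotes (cHet) were Emx1-Cre/+;Ddx3x lox/+ and their controls were Ddx3x lox/+ with no Cre. In the T532M cross, cHet were Emx1-Cre/+;Ddx3x-T532M lox/+ and their controls were Emx1-Cre/+. Cre therefore differs between genotypes in the LoF cross and is shared by them in the T532M cross, while the lox allele is shared in the LoF cross and differs in the T532M cross. The Emx1 promoter drives Cre in dorsal telencephalic progenitors and the cells they give rise to. The pools also hold cells outside that lineage, in which the alleles are not recombined.

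Libraries of input held 38059093 to 46271375 read pairs, those of the monosome 36999365 to 49049947 and those of the polysome 44214830 to 57935512. Dorsal cortical markers, among them Emx1, Pax6 and Tbr1, summed to 1900 to 2140 CPM (read counts relative to the scaled library size) in the T532M cHet monosome libraries and 2150 to 2390 CPM in those of their controls, with none of the 10 at 0 in any of them. These sums did not overlap, nor did those of T532M input (2190 to 2560 CPM in cHet and 2610 to 2980 CPM in controls). In the T532M polysome and in each LoF fraction they overlapped. Their part in the differences between genotypes was not tested. Ddx3x, the targeted gene, was at 255, 178 and 198 CPM in the LoF cHet monosome and 284, 344 and 281 CPM in that of controls, a log2 fold change of -0.53 (SE 0.218) with adjusted p = 1.0. In LoF input and polysome its log2 fold changes were -0.33 and -0.32. In T532M input it was at 235, 198 and 166 CPM in cHet and 50.1, 145 and 111 CPM in controls (log2 0.97, SE 0.273, adjusted p = 0.264). In the T532M monosome it was at 275, 284 and 345 CPM in cHet and 292, 293 and 346 CPM in controls (log2 -0.04, adjusted p = 0.974). In the T532M polysome it was at 4120, 5860 and 5260 CPM in cHet and 3050, 3470 and 2270 CPM in controls, without overlap (log2 0.80, adjusted p = 0.51). In neither cross did it pass the threshold of adjusted p under 0.05 (edgeR quasi-likelihood test, as for every adjusted p below unless another tool is named).

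In the Wnt pathway, a secreted Wnt protein binds a Frizzled receptor and an LRP co-receptor, and the scaffold proteins Dvl1, Dvl2 and Dvl3 (Dishevelled) pass the signal on. Without Wnt, a complex built on Axin1 and Apc holds β-catenin, the product of Ctnnb1, so that it is phosphorylated and degraded. With Wnt, β-catenin accumulates and joins DNA-binding partners such as Lef1 at target genes. Csnk1e encodes casein kinase 1 epsilon, which phosphorylates Dishevelled and which the DDX3X protein binds and activates, a link from the targeted helicase to this pathway that is known from cell culture and several animals. Axin2, Nkd1 and Lef1 are themselves induced by Wnt, and the products of Axin2 and Nkd1 dampen the signal. In the embryonic cortex Wnt signalling is strongest next to the cortical hem, the medial strip that secretes Wnt and Bmp proteins.

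DDX3X helps ribosomes through structured starts of mRNAs, which are often rich in G and C. The starts of the genes are shown first, as promoter DNA, most of which lies before the start. The CG pairs marked below therefore describe promoters and are not a measure of the 5′ untranslated regions, which are given further on. RefSeq (build GRCm38.p6) gave a promoter window, 250 bases before to 50 bases after a start, for 8 of the 10 genes (all but Axin1 and Apc). The windows of the 3 Dishevelled genes and of Csnk1e are printed 5′ to 3′ with each CG pair in capitals, because Dvl3 and Csnk1e rose in the T532M monosome and the paralogs Dvl1 and Dvl2 did not pass there. They lie at chr4:155847152-155847451 on the plus strand (Dvl1), chr11:70000342-70000641 on the plus strand (Dvl2), chr16:20516736-20517035 on the plus strand (Dvl3) and chr15:79442008-79442307 on the minus strand (Csnk1e).
Dvl1: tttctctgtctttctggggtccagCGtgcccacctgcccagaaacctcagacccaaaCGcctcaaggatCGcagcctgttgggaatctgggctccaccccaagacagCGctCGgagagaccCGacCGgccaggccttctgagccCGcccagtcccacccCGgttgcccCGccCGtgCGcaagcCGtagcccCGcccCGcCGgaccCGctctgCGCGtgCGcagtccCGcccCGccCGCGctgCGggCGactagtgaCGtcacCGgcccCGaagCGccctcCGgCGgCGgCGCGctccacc
Dvl2: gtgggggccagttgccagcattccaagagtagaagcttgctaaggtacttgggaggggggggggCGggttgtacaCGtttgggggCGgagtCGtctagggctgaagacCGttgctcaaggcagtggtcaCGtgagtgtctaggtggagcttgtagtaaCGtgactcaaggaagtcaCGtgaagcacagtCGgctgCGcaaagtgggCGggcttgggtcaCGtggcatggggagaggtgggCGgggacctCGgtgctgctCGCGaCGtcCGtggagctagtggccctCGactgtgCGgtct
Dvl3: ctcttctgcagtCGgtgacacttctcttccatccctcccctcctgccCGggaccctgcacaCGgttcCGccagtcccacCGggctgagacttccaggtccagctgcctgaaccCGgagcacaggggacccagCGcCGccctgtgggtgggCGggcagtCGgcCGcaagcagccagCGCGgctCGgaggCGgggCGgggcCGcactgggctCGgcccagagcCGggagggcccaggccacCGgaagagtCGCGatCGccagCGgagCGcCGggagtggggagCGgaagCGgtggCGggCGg
Csnk1e: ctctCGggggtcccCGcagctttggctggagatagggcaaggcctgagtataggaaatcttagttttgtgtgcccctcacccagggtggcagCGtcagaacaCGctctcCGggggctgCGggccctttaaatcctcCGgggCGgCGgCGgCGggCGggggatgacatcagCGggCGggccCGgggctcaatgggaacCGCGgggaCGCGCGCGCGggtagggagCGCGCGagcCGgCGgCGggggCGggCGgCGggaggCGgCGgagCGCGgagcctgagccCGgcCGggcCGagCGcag
These windows hold 35 (Dvl1), 20 (Dvl2), 30 (Dvl3) and 39 (Csnk1e) CG pairs, against a median of 7 over the 32851 promoter windows in the table. As many pairs as in Dvl3 are found in 11.7% of all windows, and as many as in Csnk1e in 4.45%. The window of Nkd1, which also rose in the T532M monosome, holds 6 pairs. It lies 6279 bases from the start of the longest coding transcript of Nkd1. Ctnnb1 (46 pairs), Axin2 (31) and Lef1 (21) did not pass there. A relation between CG pairs and the fold changes was not tested.

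The windows were also searched on both strands for the letters that Lef1 and its relatives prefer, CTTTGAA, where the last pair of bases may also be AT, TA or TT. At least 1 of these 4 motifs is present in 16.9% of all windows, and in 1 of the 15 windows of the 8 genes. The match is CTTTGTA on the minus strand, 147 bases before an internal start of Lef1 at chr3:131156044-131156343 on the plus strand, and it is in capitals as TACAAAG in the window below.
Lef1: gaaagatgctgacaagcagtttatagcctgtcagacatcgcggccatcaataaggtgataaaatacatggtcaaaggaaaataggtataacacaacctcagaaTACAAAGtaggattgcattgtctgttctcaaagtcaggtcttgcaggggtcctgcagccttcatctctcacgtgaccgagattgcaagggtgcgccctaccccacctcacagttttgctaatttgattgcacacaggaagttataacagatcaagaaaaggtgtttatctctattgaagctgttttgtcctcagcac
The window of Axin2, a gene widely used as a reporter of Wnt activity, holds none of these letters within its 300 bases.

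In the T532M monosome, Dvl3, Csnk1e and Nkd1 were higher in cHet than in controls, and no gene of the list passed as lower. The rise of Dvl3 was the largest of the 10, at 2.04-fold, and its polysome level in the same pools did not differ beyond the spread. In the LoF cross the same genes lay on the same side of 0 in the monosome with smaller values, and none passed. These 3 of 10 compare with 1.03% of the 18243 genes tested in that comparison, 178 of them higher (0.976%) and 10 lower (0.0548%), and, since earlier results guided the list, nothing more is read from that share. The median log2 fold change of the 10 genes was 0.25 and that of all genes tested was -0.05. The 188 calls depend on single pools: leaving 1 pool out gave 57, 39 and 104 calls without cHet pools 1, 2 and 3, and 26, 636 and 7 calls without control pools 1, 2 and 3.

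**Figure D1:**
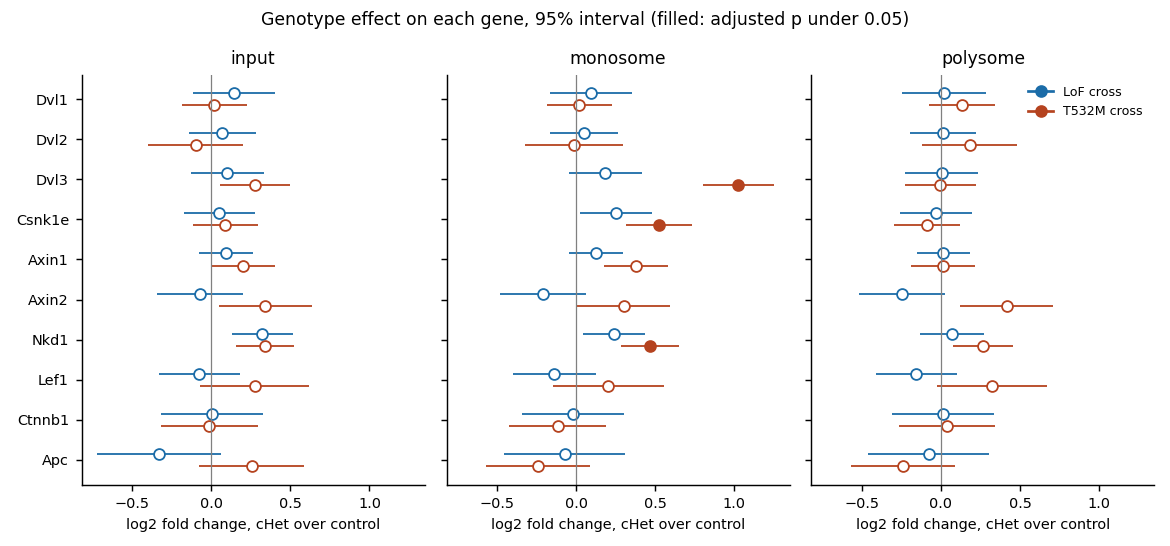
Log2 fold change of cHet over control for each gene (x axis, bars are 95% intervals) in input, monosome and polysome, with the LoF cross in blue and the T532M cross in red. Filled points passed adjusted p under 0.05, which holds for Dvl3, Csnk1e and Nkd1 in the T532M monosome, while in the polysome the Dvl3 points of both crosses lie at 0.

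Dvl3 (chromosome 16, 20516982 to 20534010, plus strand of GRCm38) was at 227, 205 and 267 CPM in the monosome of T532M cHet pools and at 106, 116 and 121 CPM in that of their controls. Every cHet library was well above every control library, so the groups did not overlap. The log2 fold change was 1.02 with a standard error of 0.115, a 2.04-fold difference (95% interval 1.74 to 2.38), with adjusted p = 0.000517. Its call held when each of the 6 pools was left out (log2 0.92 to 1.11, adjusted p 0.00365 to 0.0159). It was lost when the 3 pools with most Ttr, a choroid plexus gene, were left out together, which leaves 1 cHet pool: the log2 value was then 1.17 and adjusted p = 0.416.

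The polysome of the same pools showed no such difference for Dvl3. It was at 118, 121 and 136 CPM in T532M cHet and 128, 123 and 125 CPM in controls, with overlapping values and a log2 fold change of -0.00 (95% interval -0.23 to 0.22). In input it was at 198, 199 and 226 CPM in cHet and 192, 156 and 166 CPM in controls. The input groups did not overlap, but the log2 fold change of 0.28 (SE 0.114) gave adjusted p = 0.417. The monosome effect minus the input effect was 0.75 (SE 0.161, adjusted p = 0.546, where 0.00548% of genes passed) and was called by the DESeq2 Wald test (0.74, adjusted p = 0.00771). The authors' deposited DESeq2 table, whose monosome column is relative to input, lists 0.76 (adjusted p = 0.00333) for Dvl3 and 0.44 (adjusted p = 0.0429) for Csnk1e. For Nkd1 and Axin1 that column lists 0.14 (adjusted p = 0.742) and 0.19 (adjusted p = 0.691), neither past the threshold. With edgeR the monosome effect minus the input effect was 0.43 (adjusted p = 0.807) for Csnk1e and 0.13 (adjusted p = 0.921) for Nkd1.

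Within each pool, the log2 ratio of polysome to monosome CPM of Dvl3 was -0.95, -0.77 and -0.97 in T532M cHet and 0.26, 0.08 and 0.04 in their controls. In all 3 cHet pools the CPM of Dvl3 was thus lower in the polysome than in the monosome, and in all 3 control pools slightly higher. CPM are scaled for each library, so they do not compare amounts of RNA between fractions, and the zero of this ratio depends on the scaling. The change in this ratio was -1.03 (SE 0.162) with adjusted p = 0.0486, the only one of the 10 genes to pass among 11 of 18243 genes (0.0603%), all 11 lower in cHet. With the pool as a block, which these libraries call for since fractions of 1 pool deviated together, the value was -1.02 with adjusted p = 0.0131, and 22 genes passed. The call is marginal otherwise: adjusted p lay between 0.0567 and 0.447 when any 1 of the 6 pools was left out, was 0.0731 with DESeq2 size factors, 0.103 on the monosome and polysome libraries alone and 1.0 without the 3 pools with most Ttr, with values between -0.96 and -1.09 throughout.

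In the LoF cross Dvl3 was at 129, 113 and 128 CPM in cHet monosome libraries and 99.3, 122 and 104 CPM in those of controls, which overlap (log2 0.18, 95% interval -0.05 to 0.42, adjusted p = 1.0). The LoF effect minus the T532M effect on monosomal Dvl3 was -0.84 (SE 0.16) with adjusted p = 0.0547, just short of the threshold, and 0 of 19121 genes passed in that comparison (1279 had an unadjusted p under 0.05, and the DESeq2 Wald test called 40). Leaving out each pool in turn, it passed in 1 of 12 fits, with values between -0.92 and -0.73 and adjusted p between 0.0368 (without control pool 2 of the T532M cross) and 0.46. It also passed with DESeq2 (adjusted p = 0.000655), with no filter on low counts (0.040) and after a correction for GC content and length (0.0119). With the replicate number as a block it passed as well (0.0449), although the numbers were not taken as pairs.

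The other Dishevelled genes did not pass. Dvl1, whose 5′ untranslated region was as rich in G and C (83.5%, against 83.2% in Dvl3), was at 48.2, 52.2 and 55.3 CPM in the T532M cHet monosome and 47.0, 50.9 and 55.5 CPM in that of controls (log2 0.02, 95% interval -0.18 to 0.23). Dvl2 was at 10.9, 13.2 and 13.6 CPM in cHet and 12.3, 12.6 and 13.1 CPM in controls (log2 -0.01, 95% interval -0.32 to 0.29). Both sets of values overlap, and the intervals of both genes lie below that of Dvl3, which begins at 0.80.

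Csnk1e (chromosome 15, 79417856 to 79455566, minus strand) was at 572, 551 and 612 CPM in T532M cHet monosome libraries and 410, 397 and 400 CPM in those of controls. All cHet libraries were above all control libraries. The log2 fold change was 0.52 (SE 0.106), or 1.44-fold, with adjusted p = 0.0224. In the polysome it was at 200, 202 and 226 CPM in cHet and 238, 202 and 229 CPM in controls (log2 -0.09), and in input at 543, 473 and 530 CPM in cHet and 516, 441 and 496 CPM in controls (log2 0.09). Both of those comparisons overlap.

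The polysome to monosome ratio of Csnk1e was -1.52, -1.44 and -1.44 on the log2 scale in T532M cHet pools and -0.79, -0.98 and -0.80 in control pools. The groups did not overlap, yet the change of -0.61 (SE 0.15) had adjusted p = 0.239 with edgeR and 0.00107 with the DESeq2 Wald test. The monosome call itself rests on the full set of pools: it held without control pool 2 (adjusted p = 0.029), and with any other pool left out adjusted p was between 0.0965 and 0.23. It was also lost with no filter on low counts (0.089). In the LoF monosome Csnk1e was at 394, 433 and 488 CPM in cHet and 379, 358 and 365 CPM in controls, without overlap, with a log2 fold change of 0.26 (SE 0.116) that did not pass (adjusted p = 1.0). The difference between the crosses was -0.27 (SE 0.148, adjusted p = 0.776).

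Axin1, the scaffold of the β-catenin destruction complex, was at 66.4, 72.2 and 78.3 CPM in the T532M cHet monosome and 52.7, 59.7 and 54.2 CPM in that of controls. The groups did not overlap, and the log2 fold change of 0.38 (SE 0.102) gave adjusted p = 0.0959. It passed with the DESeq2 Wald test (0.0169) and with the replicate number as a block (0.046), although the numbers were not taken as pairs. In input Axin1 was at 87.9, 88.9 and 99.2 CPM in T532M cHet and 79.9, 80.6 and 79.5 CPM in controls, again without overlap (log2 0.20, adjusted p = 0.487), and in the polysome the values overlapped (log2 0.01). In the LoF monosome it was at 61.0, 57.4 and 62.0 CPM in cHet and 55.6, 54.4 and 55.2 CPM in controls (log2 0.13, adjusted p = 1.0).

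**Figure D2:**
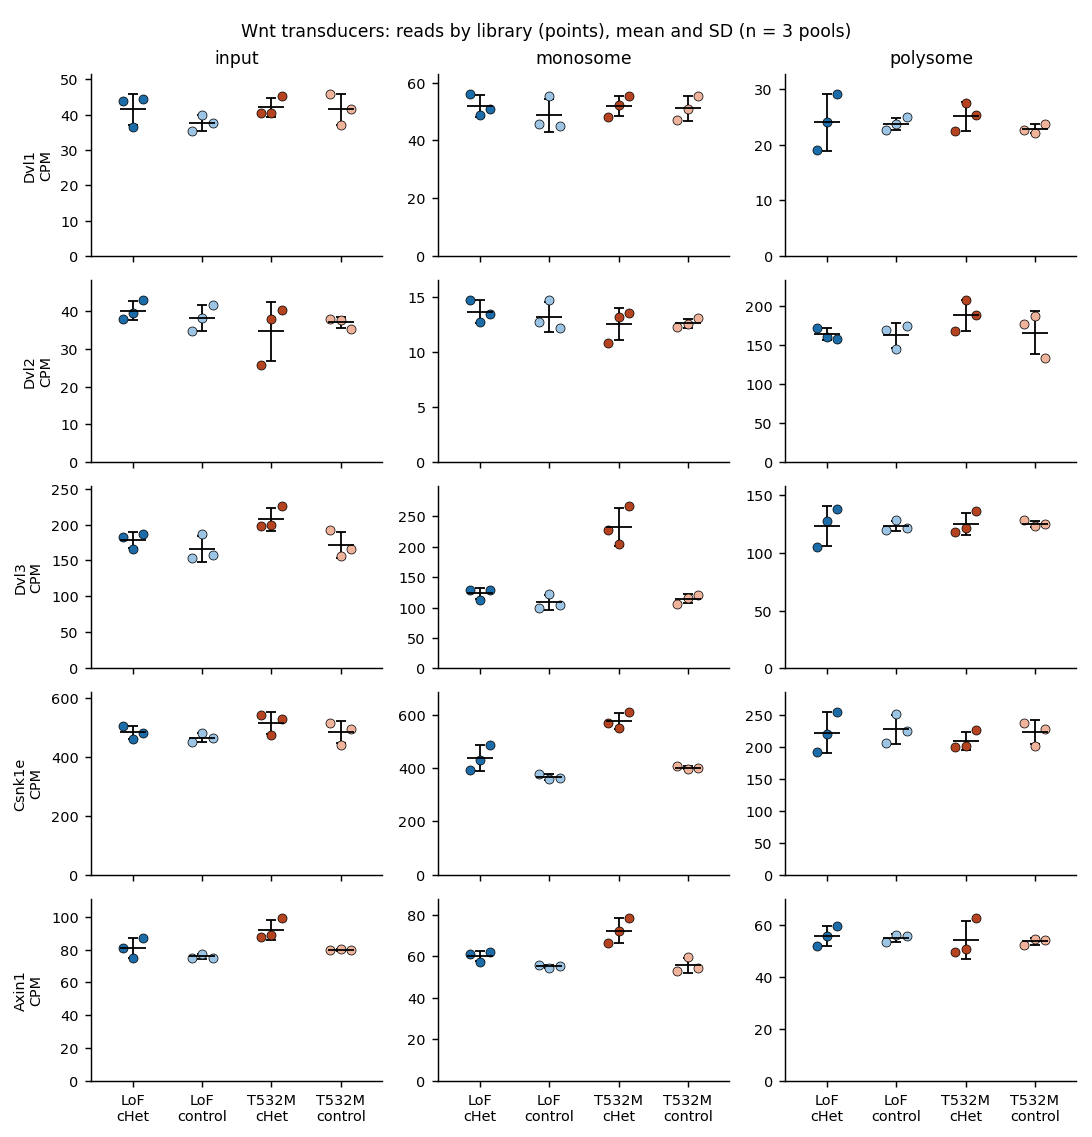
CPM (y axis, from 0) of Dvl1, Dvl2, Dvl3, Csnk1e and Axin1 in each library, with cHet and then control of the LoF cross followed by cHet and then control of the T532M cross; points are pools, bars the mean ± SD (n = 3). In the monosome column the T532M cHet points of Dvl3, at 205 to 267 CPM, and of Csnk1e, at 551 to 612 CPM, stand above the other 3 groups.

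Nkd1 (chromosome 8, 88521354 to 88594884, plus strand), which encodes an inhibitor that binds Dishevelled, was the gene of the list whose groups stood apart in every T532M fraction. In the T532M monosome it was at 79.0, 68.3 and 78.5 CPM in cHet and 54.2, 54.0 and 55.3 CPM in controls (log2 0.47, SE 0.094, adjusted p = 0.0211). In T532M input it was at 74.0, 61.1 and 62.6 CPM in cHet and 55.0, 50.7 and 50.4 CPM in controls (log2 0.34, SE 0.094, adjusted p = 0.256). In the T532M polysome it was at 23.8, 22.1 and 24.8 CPM in cHet and 20.1, 19.7 and 19 CPM in controls (log2 0.27, SE 0.0968, adjusted p = 0.543). The cHet and control values of Nkd1 did not overlap in any of these 3 fractions, a pattern no other gene of the list had, though only the monosome difference passed.

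Nkd1 was also the gene of the list with the smallest p in LoF input, at 74.7, 61.0 and 65.7 CPM in cHet and 55.3, 52.4 and 53.2 CPM in controls (log2 0.32, SE 0.0991, adjusted p = 0.266). In the LoF monosome it was at 66.8, 70.0 and 69.5 CPM in cHet and 59.6, 56.3 and 58.9 CPM in controls (log2 0.24, SE 0.099, adjusted p = 1.0). The input values of both crosses were thus close to each other, with a LoF minus T532M difference in input of -0.04 (95% interval -0.29 to 0.22). With the DESeq2 Wald test the input difference passed in both crosses, with adjusted p = 0.0211 in LoF and 0.0301 in T532M. In the authors' deposited table Nkd1 in input has a log2 fold change of 0.35 (adjusted p = 0.0319) in the LoF cross and 0.32 (adjusted p = 0.0327) in the T532M cross. The T532M monosome call held without control pool 2 (adjusted p = 0.0368), was between 0.0527 and 0.207 with any other pool left out, and was 0.0874 with no filter on low counts.

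No gene of the list passed in LoF input (0 genes or 0.0% passed of 18556 tested, with 1996 at an unadjusted p under 0.05 and 92 called by the DESeq2 Wald test). The same held in the LoF monosome, where 2 genes or 0.0108% passed, and in the LoF polysome, where 0 or 0.0% did (600 at an unadjusted p under 0.05, 0 by DESeq2). In T532M input 1 gene of the whole table passed, 0.00548%, and in the T532M polysome 0 or 0.0% (1444 at an unadjusted p under 0.05, 10 by DESeq2), none of them on the list. By separation alone, cHet lay above control for 1 of the 10 genes in LoF input (Nkd1), 3 in the LoF monosome and 0 in the LoF polysome, where 5.08%, 5.57% and 4.16% of all genes did. In the T532M cross it did so for 4 genes in input, 4 in the monosome and 2 in the polysome, where 6.11%, 8.93% and 3.82% of all genes did. cHet lay wholly below control for 0 of the 10 genes in every fraction, where 6.22%, 4.97% and 2.55% of all genes did in input, monosome and polysome of LoF and 7.21%, 12.7% and 5.8% in those of T532M.

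Axin2, a negative feedback target of β-catenin, leaned to opposite sides in the crosses. In the T532M polysome it was at 58.5, 52.9 and 41.7 CPM in cHet and 38.8, 39.2 and 36.9 CPM in controls (log2 0.41, SE 0.151, adjusted p = 0.543), and in input at 45.9, 43.5 and 37.6 CPM in cHet and 33.7, 37.5 and 29 CPM in controls (log2 0.34, adjusted p = 0.437). Neither pair of groups overlapped, while the T532M monosome values, 56.0, 54.7 and 39.6 CPM in cHet and 37.8, 47.0 and 37.2 CPM in controls, did. In the LoF cross the fold changes of Axin2 were -0.07 in input, -0.21 in the monosome and -0.25 in the polysome, with overlap in all 3. The LoF effect minus the T532M effect was -0.43, -0.51 and -0.65 in input, monosome and polysome, with adjusted p = 0.308, 0.661 and 0.606, and of all genes 0.0105% passed in input and 0.0% in the other fractions. A difference between the crosses was therefore not established for Axin2.

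Lef1, the transcription factor that carries β-catenin to DNA, followed Axin2 in sign. In the T532M polysome it was at 40.7, 43.2 and 38.1 CPM in cHet and 27.2, 38.6 and 31.6 CPM in controls, which overlap (log2 0.32, SE 0.177, adjusted p = 0.678). In T532M input it was at 26.1, 31.3 and 24.7 CPM in cHet and 19.5, 28.4 and 20.1 CPM in controls (log2 0.27, adjusted p = 0.575). Control pool 2 held the highest control value in each fraction. It also stood apart from the other control pools in the 11 meningeal markers, which summed to 176, 112 and 95.4 CPM in T532M cHet input and 60.2, 171 and 72.0 CPM in control input, and to 1030, 445 and 301 CPM in cHet polysome and 90.1, 779 and 138 CPM in control polysome. Their part in the Lef1 values was not tested. Without that pool the input and monosome differences passed (log2 0.47 with adjusted p = 0.0416 and 0.46 with adjusted p = 0.0436), as did the difference between the crosses in input (-0.58, adjusted p = 0.0405), so 1 pool decides these calls. In the LoF cross the values of Lef1 were -0.08, -0.14 and -0.16 in input, monosome and polysome, none past the threshold.

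**Figure D3:**
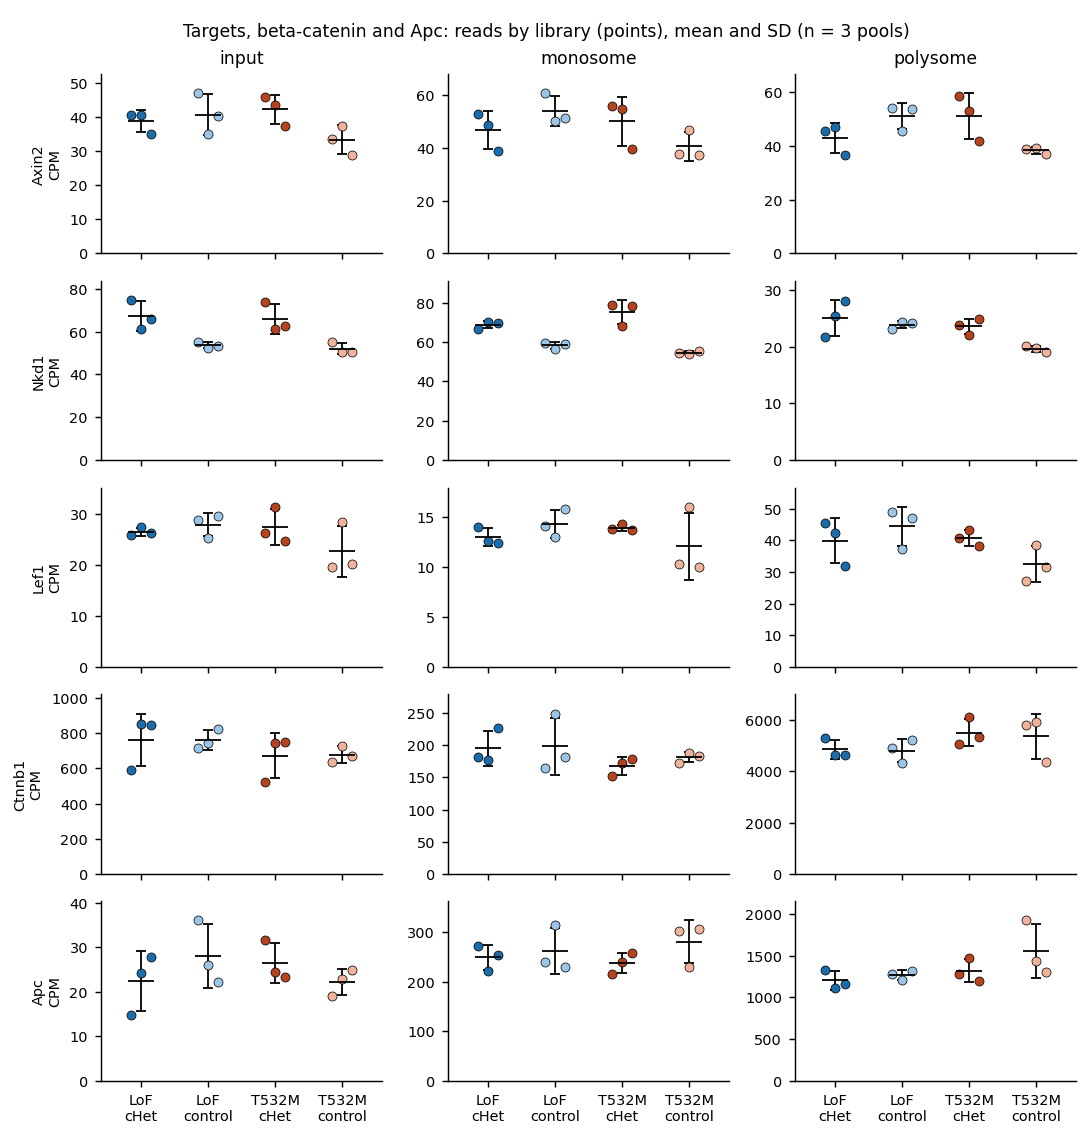
CPM (y axis, from 0) of Axin2, Nkd1, Lef1, Ctnnb1 and Apc in each library, in the same group order as for the transducers; points are pools, bars the mean ± SD (n = 3). The T532M cHet points of Nkd1 lie above those of its controls in all 3 fractions, and Ctnnb1 reaches 4310 CPM or more in every polysome library.

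The cortical hem markers (15 genes, among them Wnt3a, Wnt8b, Rspo3 and Lmx1a) differed between the pools and moved with Axin2. In input their summed level was 120, 55.3 and 24 CPM in T532M cHet and 31.4, 38.2 and 30.2 CPM in T532M controls, and 62.0, 63.4 and 32.7 CPM in LoF cHet and 93.6, 61.8 and 73.3 CPM in LoF controls. At most 2 of the 15 were at 0 in a library. All 14 that were tested had positive fold changes in the T532M monosome (median 1.60) and negative ones in the LoF monosome (median -0.40), and 0 passed in either. The 12 choroid plexus markers summed to 216, 9.35 and 5.21 CPM in T532M cHet input and 5.05, 8.89 and 6.01 CPM in control input, so cHet pool 1 stood apart. In LoF input they summed to 54.9, 12.8 and 9.09 CPM in cHet and 192, 12.2 and 226 CPM in controls, so control pools 1 and 3 stood apart there. Their part in the differences between genotypes was not tested.

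Over the 12 pools, the log2 CPM of Axin2 was correlated with the mean log2 CPM of the 14 hem markers, with Pearson's r = 0.885 in the monosome (permutation p = 0.00027, adjusted over 9 relations 0.00243) and Spearman's rho = 0.881 (adjusted permutation p = 0.00333). In input r was 0.782 (adjusted permutation p = 0.00756, rho = 0.783) and in the polysome 0.826 (adjusted permutation p = 0.00688, rho = 0.804). Without the 2 pools farthest from the median of the hem markers, r was 0.763, 0.846 and 0.847 in input, monosome and polysome. Within the 6 pools of a cross, r in the monosome was 0.954 in LoF (exact permutation p = 0.00278) and 0.884 in T532M (exact permutation p = 0.0139), in the polysome 0.899 and 0.915 (exact permutation p = 0.00694 and 0.0167), and in input 0.705 in LoF and 0.863 in T532M (exact permutation p = 0.121 and 0.0208). Axin2 in the T532M cross thus went with the level of the hem markers, though not in every pool. In the T532M polysome, the mean log2 CPM of the markers in cHet pool 3 (-0.59) was below that of control pools 1 and 2 (0.25 and -0.25). Yet its Axin2, at 41.7 CPM, was above theirs (38.8 and 39.2 CPM). The part of these markers in the difference of Axin2 between genotypes was not tested. In bulk tissue, more hem cells and more RNA of these genes per cell cannot be told apart. The marker list and these relations, with those of Lef1 and Nkd1 below, were chosen with earlier results of these data known. Their p-values are therefore a description and not independent support. The permutations over the 12 pools also exchange pools between crosses and genotypes that differed in hem markers, and those within a cross exchange pools between genotypes.

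For the other Wnt-induced genes of the list the relation with the markers did not pass over the 12 pools, and no difference from Axin2 was tested. For Lef1 r was 0.567, 0.416 and 0.624 in input, monosome and polysome (adjusted permutation p = 0.099, 0.27 and 0.0704). For Nkd1 it was 0.341, 0.122 and 0.216 (adjusted permutation p = 0.356, 0.701 and 0.559). Within the crosses the r of Nkd1 had opposite signs, at -0.382, -0.576 and -0.75 in LoF (exact permutation p = 0.468, 0.178 and 0.114) and 0.776, 0.483 and 0.415 in T532M (exact permutation p = 0.0611, 0.35 and 0.414), so the pooled values join crosses whose r differed in sign. For Lef1 it was 0.442, 0.659 and 0.854 in LoF (exact permutation p = 0.443, 0.16 and 0.0292) and 0.557, 0.376 and 0.411 in T532M (exact permutation p = 0.239, 0.432 and 0.432). The part of the hem markers in the differences of Nkd1 and Lef1 between genotypes was not tested.

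**Figure D4:**
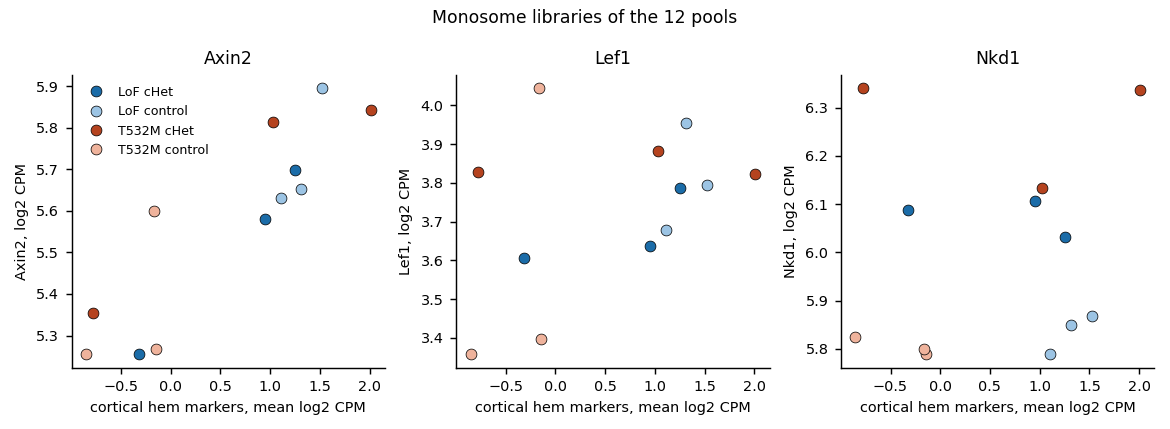
Log2 CPM of Axin2, Lef1 and Nkd1 (y axes, each with its own range) against the mean log2 CPM of the cortical hem markers (x axis) in the monosome libraries of the 12 pools. Axin2 climbs with the markers (r = 0.885), and Nkd1 is higher in the cHet than in the control pools of each cross (pooled r = 0.122, negative within LoF and positive within T532M).

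Ctnnb1 and Apc, the effector and its captor, did not pass in any of the 6 genotype comparisons. Ctnnb1 was at 5080, 6110 and 5330 CPM in the T532M cHet polysome and 5820, 5930 and 4360 CPM in that of controls (log2 0.04, 95% interval -0.27 to 0.34), and at 5290, 4650 and 4640 CPM in the LoF cHet polysome and 4910, 4310 and 5210 CPM in that of controls (log2 0.02). Apc was at 1280, 1470 and 1200 CPM in the T532M cHet polysome and 1920, 1440 and 1300 CPM in that of controls (log2 -0.24, 95% interval -0.57 to 0.09). All of these values overlap. Over the 6 genotype comparisons the fold changes of Ctnnb1 lay between -0.12 and 0.04 and those of Apc between -0.33 and 0.25. Both ends for Apc were in input, -0.33 in LoF (adjusted p = 0.649) and 0.25 in T532M (adjusted p = 0.592). With 1 pool left out, the LoF input value ranged from -0.52 to -0.09. In T532M the monosome and the polysome effect minus the input effect were both -0.49 for Apc (adjusted p = 0.835 and 0.818). A small difference in Apc is therefore not shown.

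Across fractions the 10 genes fell on both sides of the median of all genes. In controls, 7 of the 10 passed between polysome and monosome in each cross, which is close to the 81.2% of 18556 genes that did in LoF and the 79.9% of 18243 in T532M. Ctnnb1, Dvl2, Apc and Lef1 were higher in the polysome and Csnk1e, Dvl1 and Nkd1 lower in both crosses (of all genes in LoF, 36.4% were higher and 44.9% lower). CPM are shares of each library, so a ratio between fractions is relative to other RNAs and its zero depends on the scaling. The median of all genes lay at -0.31 in both crosses.

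Ctnnb1 was the most polysomal of the 10. In T532M control pools it was at 5820, 5930 and 4360 CPM in the polysome and 173, 188 and 183 CPM in the monosome, and in LoF control pools at 4910, 4310 and 5210 CPM and 164, 249 and 181 CPM. The log2 fold change of polysome over monosome was 4.89 (SE 0.184) in T532M and 4.60 (SE 0.191) in LoF controls, a 29.6-fold and a 24.3-fold difference, and 99.8% of genes had a lower value in either cross. Its partners at cell junctions, from a list of 9 that includes the cadherin Cdh2 and the α-catenins Ctnna1 and Ctnna2, were all higher in the polysome in both crosses, with a median of 3.52 in LoF and 3.49 in T532M (3.65 and 3.92 for Cdh2).

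The Dishevelled paralogs sat in different places on the gradient. Their coding sequences are nearly equal in length (2085 bases in Dvl1, 2208 in Dvl2 and 2154 in Dvl3). Their whole transcripts are not, at 3358 bases in Dvl1, 5037 in Dvl2 and 3983 in Dvl3. Transcript length went with polysome over monosome across all genes (Spearman's rho = 0.483 in LoF and 0.491 in T532M controls), and its part in these places was not tested. Over the 6 control pools the log2 ratio of polysome to monosome was 3.29 to 3.89 for Dvl2, 0.04 to 0.27 for Dvl3 and -1.22 to -0.86 for Dvl1. The ranges do not touch. Dvl2 held 177, 187 and 134 CPM in the polysome and 12.3, 12.6 and 13.1 CPM in the monosome of T532M controls, a 13.1-fold difference (log2 3.71, SE 0.17), while Dvl1 held 22.7, 22.2 and 23.8 CPM and 47.0, 50.9 and 55.5 CPM (log2 -1.16, SE 0.107). Relative to input, Dvl2 was higher in the polysome in T532M controls (log2 2.16) and Dvl1 was lower (log2 -0.86). The ratio of Dvl3 in T532M cHet pools, -0.97 to -0.77, was near that of Dvl1 in control pools.

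Csnk1e had control ratios of -0.98 to -0.51 and Nkd1 of -1.54 to -1.22, so both made up a smaller share of polysome than of monosome reads. Of the other casein kinase 1 genes, Csnk1d, the closest relative of Csnk1e, was higher in the polysome (log2 0.85 in LoF and 0.80 in T532M controls), and Csnk1g2, Csnk1g3 and Csnk1a1 were lower (-1.94 in both crosses for Csnk1g2). Axin1 and Axin2 were close to 0, with ranges of -0.12 to 0.05 and -0.26 to 0.07. Lef1 lay at 1.28 to 1.79 and Apc at 1.94 to 2.66. Apc stood out against input rather than against the monosome: it was at 1920, 1440 and 1300 CPM in the polysome and 19, 22.9 and 24.8 CPM in the input of T532M controls, a log2 fold change of 6.13 (SE 0.209), and in LoF controls 5.50 (SE 0.237), where 79.0% and 79.3% of all genes passed. Its monosome was above input too, at log2 ratios of 2.73 to 4.00 over the 6 control pools. For monosome over input, 97.2% of genes in LoF and 97.6% in T532M controls had a lower value. Over all genes, coding length went with polysome over input (Spearman's rho = 0.772 in LoF and 0.759 in T532M controls). The part of length in the values of Apc was not tested.

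**Figure D5:**
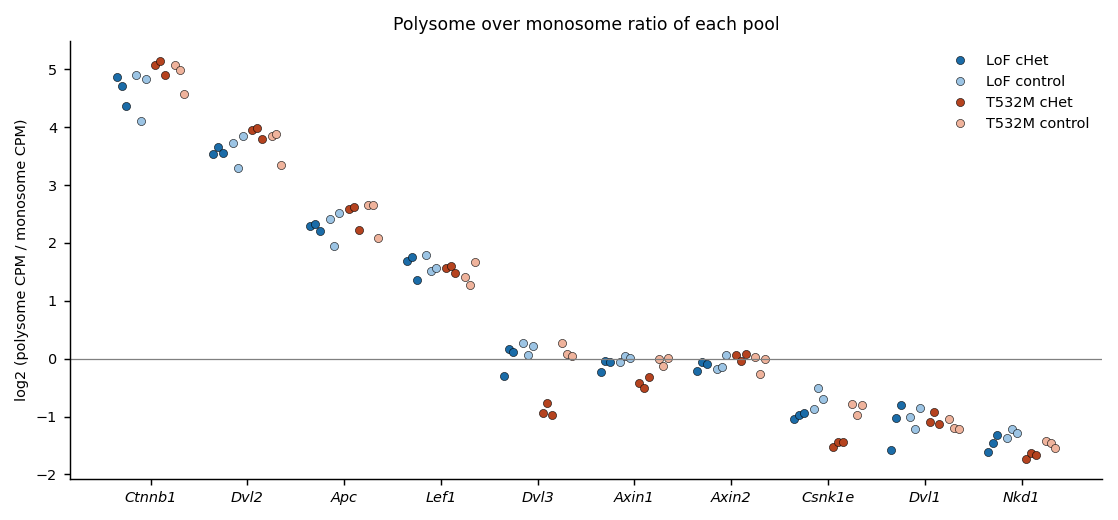
Log2 ratio of polysome to monosome CPM (y axis) of each pool, genes ordered from most polysomal to most monosomal in controls, with cHet and then control of the LoF cross followed by cHet and then control of the T532M cross. The T532M cHet points of Dvl3 (-0.97 to -0.77) and Csnk1e (-1.52 to -1.44) lie apart from the other 3 groups, while Ctnnb1 is above 4 in every pool.

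These places depend in part on how transcript length and GC content are handled. Across 14307 genes, polysome over monosome in T532M controls correlated with coding length at Spearman's rho = 0.633, a description across genes that are not independent. The coding sequence of Apc, 8526 bases, is longer than that of 99.0% of genes, and that of Ctnnb1, 2343 bases, longer than that of 76.3%. After a correction for GC content and transcript length within each library, chosen after the data were seen, Ctnnb1 (4.35 in LoF and 4.65 in T532M), Dvl2 (2.66 and 2.80), Lef1 (1.41 and 1.19) and Apc (0.88 and 0.90) remained higher in the polysome, and Csnk1e (-0.87 and -0.97), Dvl1 (-1.87 and -1.93) and Nkd1 (-1.83 and -1.99) lower. Dvl3 then passed as lower (-0.38 and -0.39), as did Axin1 (-0.50 and -0.49) and Axin2 (-0.74 and -0.70). The genotype effects moved little: in the T532M monosome the corrected values were 1.00 for Dvl3 (adjusted p = 0.000203), 0.47 for Csnk1e (0.0192) and 0.45 for Nkd1 (0.0164).

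The 3 genes that rose in the T532M monosome share a very GC-rich 5′ untranslated region. Since the list was drawn up with results of these data known, and GC content went with the monosome fold change over all genes, this shared property is a description and not independent of the choice. In the longest coding transcript of GENCODE M21 this region was 83.2% G and C in Dvl3, 82.5% in Csnk1e and 79.7% in Nkd1, where the median over genes was 64.0%, and 97.6%, 97.1% and 94.3% of genes had a lower value. Dvl1 had 83.5% and did not rise, Axin1 had 75.2%, Apc 74.9%, Ctnnb1 72.5% and Dvl2 69.0%, and the targets Lef1 and Axin2 had 60.9% and 57.6%. Over all genes with such a region of at least 20 bases, 51 of the 746 with 80% or more G and C passed as higher in the T532M monosome (6.84%), 85 of 3240 with 70 to 80% (2.62%), 27 of 4820 with 60 to 70% (0.56%), 7 of 3585 with 50 to 60% (0.195%) and 1 of 1152 below 50% (0.0868%). The median fold changes of these classes, from the richest down, were 0.10, 0.01, -0.05, -0.08 and -0.11 in the T532M monosome, 0.10, 0.05, -0.02, -0.02 and 0.04 in T532M input, and between -0.04 and -0.01 in the T532M polysome. In LoF input they were 0.04, 0.01, 0.01, -0.03 and -0.16, and in the LoF monosome 0.04, 0.04, 0.02, -0.01 and -0.04. In the LoF polysome they lay between 0.00 and 0.01. The richest class thus had the highest median in input and monosome of both crosses. Whether GC content has a part in the rise of the 3 genes was not tested.

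By correlation over the 36 libraries, each centred on its cross and fraction, the genes most like Dvl3 were Mta1 (r = 0.957), Phf2 (0.953) and Ankrd13a (0.952). They also passed in the T532M monosome with log2 fold changes of 0.93, 1.00 and 0.96. This centring leaves the genotype effect in, so a shared rise is built into the ranking and is no separate result. With genotype also centred, the genes most like Dvl3 were Zfp362 (0.942), Git1 (0.927) and Btbd2 (0.88). Those most like Csnk1e were Gnb1 (0.956), Lsm14b (0.914) and Nck2 (0.905), and those most like Nkd1 were Lrrc75a (0.873), Jund (0.868) and Kcmf1 (0.857). For Axin1 the first was Vangl2 (0.911), a planar polarity gene whose product works with Dishevelled, which was higher in the T532M cHet monosome (log2 0.63, adjusted p = 0.00992). Axin2 was most like Tmem132c (0.912), Hey2 (0.904) and the hem ligand Wnt8b (0.872), and Lef1 like Tnfrsf19 (0.945), Dmrt3 (0.881) and Zic2 (0.861). Within the list Dvl3 correlated most with Axin1 (0.842) and Csnk1e (0.833), Axin2 with Lef1 (0.739), and Dvl2 with Ctnnb1 (0.748). With genotype also centred, these values were 0.597, 0.558, 0.597 and 0.785, and Dvl3 correlated most with Dvl1 (0.797). The libraries share pools, so these values describe the data and carry no test.

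The rest of the pathway was read from 122 further genes, of which 108 were tested in the T532M cross and 109 in the LoF cross. In the T532M monosome 4 of them rose and 0 fell, where 1.03% of all genes passed. Gsk3a, a kinase that marks β-catenin for destruction, was at 174, 173 and 201 CPM in cHet and 120, 128 and 127 CPM in controls (log2 0.55, SE 0.104, adjusted p = 0.0143). Fbxw11, part of the ubiquitin ligase that acts on phosphorylated β-catenin, was at 143, 143 and 164 CPM in cHet and 107, 107 and 116 CPM in controls (log2 0.45, SE 0.0923, adjusted p = 0.023). Strap, from the list of cytoplasmic factors, was at 202, 176 and 167 CPM in cHet and 124, 132 and 123 CPM in controls (log2 0.52, adjusted p = 0.0186), and Sfrp2, a secreted Wnt inhibitor, at 12.3, 12.6 and 14.7 CPM in cHet and 9.66, 9.83 and 9.60 CPM in controls (log2 0.44, adjusted p = 0.0402). All 4 were separate between the groups in the monosome, and in the polysome their fold changes were -0.04, -0.15, -0.07 and -0.06.

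None of the 12 Wnt ligands, 16 receptors and 8 genes of the R-spondin axis tested passed in the T532M monosome, although their medians were positive (0.45, 0.33 and 0.50) and the ligand and R-spondin lists share genes with the hem markers. The lists of 5 other casein kinase 1 genes, 16 nuclear factors, 16 other targets and 9 adhesion partners also had 0 genes past the threshold there, with medians of 0.05, 0.05, 0.20 and -0.04. The 11 extracellular inhibitors and 26 cytoplasmic transducers, which hold the 4 genes above, had medians of 0.22 and -0.03. In the other genotype comparisons of both crosses 0 of these pathway genes passed. Between polysome and monosome of controls, 63 of 109 were higher and 24 lower in LoF, and 57 of 108 higher and 22 lower in T532M. Of all genes, 36.4% were higher and 44.9% lower in LoF, and 79.9% passed in either direction in T532M. Coding length went with this ratio over all genes (Spearman's rho = 0.635 in LoF and 0.633 in T532M), and its part in these counts was not tested. Among the receptors Ptk7 (3.37 in LoF and 3.40 in T532M) and Fzd7 (2.68 and 2.86) were on the polysome side with Dvl2, and Ryk (-2.31 and -2.25) on the monosome side with Dvl1.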

How the data were processed

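Read pairs per gene were measured in 36 libraries, 3 fractions of each of 12 pools of embryonic mouse cortex. The deposited counts are raw: per the file headers, they come from featureCounts 2.0.3 with strand setting 2, on GENCODE M25 genes of GRCm38 taken from end to end, so intronic pairs count too. The submitters' processing notes name STAR 2.7.11a, Subread 2.0.3, FastQC 0.11.7 and DESeq2 1.34.0. The authors' deposited tables of each cross hold log2 fold changes, p-values and a normalized signal per library (the count divided by a size factor). In them the monosome and polysome columns are relative to input.

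The 10 genes, all gene and marker lists and the tests were chosen with earlier results of these data known. The quasi-likelihood test of edgeR 4.0.16 in R 4.3.3 was run on the counts after filterByExpr and TMM scaling, with a term for each group and a threshold of 0.05 on the p adjusted over all genes (Benjamini-Hochberg). The filter kept 18556 genes in the LoF fit and 18243 in the T532M fit (18 libraries each), and 19121 in the fit of all 36 that compared the crosses. CPM use TMM library sizes. Intervals are 95%, 1.96 standard errors either side. The alternatives used DESeq2 1.42.0, other filters, sets of libraries and blocks. Correlations used 100000 permutations over 12 pools and exact ones over 6. The exact permutation test of 3 pools against 3 cannot go below p = 0.1, so single comparisons rest on the fits. The code was tested on simulated counts.

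Genes named are the 10, Ddx3x, up to 4 genes of each pathway list past the threshold with the smallest p and a mean of at least 2 CPM, and the 3 genes most correlated with each of the 10. For Dvl3 the 3 found with genotype also centred are named too. Vangl2, Gsk3a, Fbxw11, Strap and Sfrp2 fall under these rules. Deviations of cHet and control libraries with the same number correlated at -0.297 to 0.0979 in LoF and -0.152 to 0.172 in T532M, so the numbers were not taken as pairs. Fractions of 1 pool correlated at 0.0635 to 0.312 in LoF and 0.102 to 0.413 in T532M, where all exceeded 0.1. The labels do not tie pools to litters or days, so p-values measure the spread between pools, which may be technical in part. Genes overlapping on the same strand and near-identical copies share reads. The other marker lists (meningeal, endothelial, thalamic, ventral forebrain and interneuron, microglial and erythroid) had 0 genes past the threshold in the genotype comparisons, with T532M monosome medians of 0.43, 0.06, 0.14, -0.17, -0.01 and 0.13.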

Additional observations from a re-analysis of the deposited data

Results flagged for a closer look

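The T532M genotype effect on Dvl3 differed between fractions: the change in its polysome over monosome ratio was -1.03 on the log2 scale (SE 0.162, adjusted p = 0.0486, edgeR quasi-likelihood test of the difference itself), with the ratio at -0.97 to -0.77 in 3 of 3 cHet pools and 0.04 to 0.26 in 3 of 3 control pools. Summed hem markers in the monosome of these pools were 114, 63.5 and 36.4 CPM in cHet and 55.4, 44.4 and 45.0 CPM in controls, and their part in the difference was not tested.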

How the results depend on the processing

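Of 2910 values of the 10 genes under the alternatives, 2826 kept their direction and side of the threshold or changed sign while passing under neither setting (229), 25 passed that had not, 52 no longer passed and 7 turned round. All 7 came with the correction for GC content and length, added after the data were seen: polysome over monosome of Dvl3 (-0.38 in LoF, -0.39 in T532M) and of Axin1 (-0.50 in LoF), and monosome over input of Csnk1e (0.22 in LoF, 0.35 in T532M) and Axin1 (0.075 in LoF, 0.038 in T532M). DESeq2 size factors moved the median of polysome over monosome from -0.31 by less than 0.1. Counts of genes past the threshold moved as follows, the cause was not tested. The replicate block (number for genotype, pool for ratios) gave 21 in T532M input (1 without it), 349 in the T532M monosome (188), 4 in the T532M polysome (0), 22 for T532M polysome over monosome (11), 3 for monosome over input (1), 0 for LoF polysome over input (2), and 34, 14 and 1 for the difference between the crosses in input (2), monosome (0) and polysome (0). The block changed no other call of the 10 genes than those given above and the rises of Axin2 over input in T532M controls. The DESeq2 Wald test gave 92 (LoF input), 5 (LoF monosome), 9 (LoF polysome over input), 123, 564 and 10 (T532M input, monosome, polysome), 83 and 31 (T532M polysome over monosome, monosome over input), and 681, 40 and 7 (crosses); DESeq2 size factors gave 1 (T532M polysome) and 0 (T532M polysome over monosome). No filter on low counts gave 967, 33 and 41 (LoF input, monosome, polysome), 193, 2 and 88 (LoF polysome over input, polysome over monosome, monosome over input), 157 and 58 (T532M input, polysome), 7 and 4 (T532M polysome over monosome, monosome over input), and 1163, 36 and 51 (crosses). Only the fractions compared gave 1 (LoF monosome), 1 (LoF polysome over input), 0 and 307 (T532M input, monosome), 0 and 0 (T532M polysome over monosome, monosome over input) and 0 (crosses, input). Without the 3 pools with most Ttr the counts were 62, 940 and 70 (LoF input, monosome, polysome), 16, 203 and 123 (LoF ratios in the order above), 0 in T532M input, monosome and both called ratios, and 12 (crosses, input). The GC and length correction gave 1 (LoF polysome over input), 0 (T532M input), 0 (T532M monosome over input), and 1 and 6 (crosses, input, monosome). Leaving out each pool in turn gave 0 to 15, 1 to 180 and 0 to 12 (LoF input, monosome, polysome), 0 to 18 (LoF polysome over input), 0 to 543, 7 to 636 and 0 to 139 (T532M input, monosome, polysome), 0 to 0 and 0 to 1 (T532M polysome over monosome, monosome over input), and 1 to 1697, 0 to 43 and 0 to 2 (crosses). Ddx3x passed in the LoF monosome without the 3 pools with most Ttr (-0.88, adjusted p = 0.00304) and in T532M input with no filter (0.98, adjusted p = 0.0118). CPM without TMM moved 115 of 120 group means beyond 1 SD, and 2 of the 10 genes kept the same 3 most alike genes when genotype was also centred.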
